A study of Mus musculus with 2 samples.

Results

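Meg3, Rian and Mirg are 3 of the 41605 gene features in each of the 2 deposited matrices, found by their symbols (ENSMUSG00000021268, ENSMUSG00000097451 and ENSMUSG00000097391), with 1 row per symbol. They were chosen by their measured levels: Meg3 and Rian differed most between the microglia of the 2 libraries, so that difference is given here as a description, without a test, and supports nothing else. The study ran droplet-based single-cell RNA sequencing on hippocampal cells from adult wild-type male C57BL/6 mice, 10 weeks old. Each library was loaded as a pool of cells from 3 mice, and all mice shared genotype, strain, sex and age. The study compared enzymatic digestion (30 min at 37 °C) with mechanical dissociation at 4 °C, each followed by a Percoll gradient that removes debris and myelin. The labels do not say which library came from which procedure, so the libraries are called library 1 and library 2 (after the sample numbers in their titles), values are set side by side, and no difference between them is assigned to a procedure. Neither library has a replicate, and no test between libraries or cell classes was made.

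The 3 genes lie in the Dlk1-Dio3 imprinted domain, where the copy inherited from the mother gives rise to a chain of non-coding RNAs and the copy inherited from the father expresses the protein-coding genes Dlk1, Rtl1 and Dio3. Meg3 is a long non-coding RNA that is abundant in neuronal nuclei. Rian is a host transcript of small nucleolar RNAs and microRNAs, and Mirg is a host transcript of a large microRNA cluster. The maternal non-coding RNAs are widely regarded as products of 1 long transcribed stretch that starts at Meg3.

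In the GENCODE M21 annotation of GRCm38 all 3 genes lie on the plus strand of chromosome 12. Meg3, annotated as a lincRNA with 11 transcripts, spans chr12:109541001-109571726. Rian, a processed transcript with 20 annotated forms, spans chr12:109603940-109661716. Mirg, a lincRNA with 12 transcripts, spans chr12:109729764-109749460. The same annotation places 2 microRNA genes inside Meg3, 4 microRNA and 13 snoRNA genes inside Rian, and 14 microRNA genes inside Mirg. The microRNAs are shown because they are what Rian and Mirg are known for. A library of polyadenylated 3′ ends does not count them, and no value below is a microRNA level. RefSeq (GRCm38.p6) gives 1 hairpin with 2 mature sequences inside Meg3, 3 hairpins with 6 inside Rian, and 14 hairpins with 26 inside Mirg. The 5 printed here are 1 from Meg3 (miR-770-5p), 1 from Rian (miR-370-3p) and 3 from Mirg, with the seed, bases 2 to 8, in capitals. Among the 34 mature sequences, miR-453 and miR-496a-5p were the only pair that shared a seed.
miR-770-5p: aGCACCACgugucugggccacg
miR-370-3p: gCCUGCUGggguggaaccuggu
miR-134-5p: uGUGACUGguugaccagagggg
miR-453: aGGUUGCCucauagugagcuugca
miR-496a-5p: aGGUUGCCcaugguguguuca

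The start regions of the 3 genes are shown because their RNAs took the same order across neuron types, as described below. Snhg11, an RNA from outside the domain, was lowest and highest in the same types. Each RefSeq window runs from 250 bases before to 50 bases after an annotated start. Capitals mark matches, on either strand, to the cyclic AMP response element TGACGTCA, to TATAAA and to CCAAT.
Meg3, chr12:109540746-109541045, plus strand: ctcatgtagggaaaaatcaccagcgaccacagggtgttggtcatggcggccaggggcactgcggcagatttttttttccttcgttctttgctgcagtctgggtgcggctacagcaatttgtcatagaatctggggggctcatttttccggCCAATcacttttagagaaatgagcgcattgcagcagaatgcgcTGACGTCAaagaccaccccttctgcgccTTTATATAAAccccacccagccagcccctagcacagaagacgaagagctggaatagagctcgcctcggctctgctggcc
Rian, chr12:109603695-109603994, plus strand: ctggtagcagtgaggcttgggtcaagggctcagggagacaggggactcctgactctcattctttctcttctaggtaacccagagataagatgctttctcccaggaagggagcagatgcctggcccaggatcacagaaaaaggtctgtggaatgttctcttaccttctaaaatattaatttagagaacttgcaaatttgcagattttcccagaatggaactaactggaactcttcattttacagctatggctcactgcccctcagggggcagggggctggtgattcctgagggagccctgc
Mirg, chr12:109734731-109735030, plus strand: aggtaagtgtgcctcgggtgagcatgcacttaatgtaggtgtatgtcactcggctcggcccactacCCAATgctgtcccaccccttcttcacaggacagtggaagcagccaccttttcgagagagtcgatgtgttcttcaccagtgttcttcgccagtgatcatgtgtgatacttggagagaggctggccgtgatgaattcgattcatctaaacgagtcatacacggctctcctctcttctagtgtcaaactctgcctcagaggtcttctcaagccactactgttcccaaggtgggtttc
The Meg3 window held TGACGTCA with its first base at -57 relative to the start, a palindromic stretch that matched TATAAA on both strands at -29 and -25 (the matches overlap), CCAAT at -100, and 13 CG dinucleotides. Of 32851 RefSeq windows of this length, 1.79% held TGACGTCA, 13.6% TATAAA and 37.4% CCAAT, and the median window held 7 CG dinucleotides. The Rian window had none of these letters and 0 CG dinucleotides. The Mirg window had CCAAT at -184 and 10 CG dinucleotides. It starts inside the GENCODE gene and covers the mature sequences of miR-668 and that of miR-485-3p. RefSeq lists another Meg3 start, whose window, chr12:109545148-109545447, held none of the 3 motifs. A match is a description of the letters and says nothing of whether a factor binds there.

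Values are unique molecular identifiers (UMIs), each standing for 1 captured RNA molecule. They were summed over the cells of a class and library and divided by all UMIs of that class (CPM, the UMIs of a gene per 1000000 UMIs of the class), with exact Poisson 95% intervals that cover counting error only. Library 1 held 12306 barcodes and 18783691 UMIs, and library 2 held 6448 barcodes and 29356086 UMIs. After limits on UMIs, genes, mitochondrial RNA and doublets, 5989 cells of library 1 (median 1695 UMIs) and 2075 of library 2 (median 6433 UMIs) were kept. Of these, 3 had a barcode that also occurs in the other library. Cell classes rest on marker RNAs alone, never on the 3 genes, and so carry the ending "-like". Library 1 was 76.7% neuron-like (4593 cells) and 11.0% microglia-like (659 cells), and library 2 was 72.5% microglia-like (1505 cells) with only 46 neuron-like cells. Microglia-like cells carried a median of 12 of the 12 microglia markers in both libraries. They carried a median of 2 of the 12 neuron markers in library 1 and 0 in library 2.

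Meg3 was seen in every neuron-like cell of library 1. There it made up 36207 CPM (36081 to 36334), from 315557 UMIs in 4593 cells. The median neuron-like cell held 58 Meg3 UMIs, with an interquartile range of 20 to 98 and a maximum of 452. Rian reached 1455 CPM (1430 to 1481) and Mirg 361 CPM (348 to 374). Rian was seen in 79.4% and Mirg in 42.4% of the cells, at a median depth of 1677 UMIs. Because every neuron-like cell held Meg3, none could hold Rian or Mirg without it. All 3 RNAs were seen in 1770 cells (38.5%). The levels of the 3 genes are not ranked against each other, because 3′ counts depend on where each transcript is primed.

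The 46 neuron-like cells of library 2 carried less Meg3 per UMI, 19140 CPM (18311 to 19997). Of their 2004 Meg3 UMIs, 1 cell held 545. The median cell was at 14608 CPM, against 34283 CPM in library 1. Rian was at 993 CPM (812 to 1204) and Mirg at 220 CPM (139 to 330) there. These cells had a median of 6.83% mitochondrial UMIs, against 0.83% in the neuron-like cells of library 1, and a Malat1 level (a nuclear long non-coding RNA) of 61957 CPM against 153645 CPM. The part of these RNA contents in the Meg3 difference was not tested. Neuron types, which differed in Meg3 in library 1 as described below, were not called in library 2. Their part in the difference was not tested either.

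The microglia-like cells of the 2 libraries differed in Meg3 by a wide margin, which is how the genes were chosen. In library 1 Meg3 was at 1665 CPM (1600 to 1732, 2469 UMIs), and in library 2 it was at 62.5 CPM (57.7 to 67.5, 633 UMIs). Rian reached 62.7 CPM (50.6 to 76.8, 93 UMIs) in the first and 1.58 CPM (0.903 to 2.56, 16 UMIs) in the second. Mirg was at 12.1 CPM (7.19 to 19.2, 18 UMIs) in library 1 and 0.197 CPM (0.0239 to 0.713, 2 UMIs) in library 2. All 3 RNAs were higher in library 1, which restates how they were chosen. The library 2 values depended on how doublets were treated: with no doublets removed Meg3 was at 105 CPM and Rian at 2.57 CPM there.

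On a log2 scale with 10 CPM added to each level, the difference was 4.53 for Meg3, which ranked 1 among 12529 genes with enough UMIs, 2.65 for Rian (rank 18) and 1.12 for Mirg (rank 355). Mirg, with 18 and 2 UMIs, just met the minimum of 20 UMIs over both sums. The median gene differed by 0.13, and relative to it the values were 4.40, 2.52 and 0.99. Meg3 and Rian, but not Mirg, were at least 4-fold higher, as were 0.559% of all genes tested. This share stands beside a contrast that chose the genes, and nothing is read from it. Snhg11, a neuron-enriched long non-coding RNA, showed a log2 difference of 4.17 in the same contrast, and Syt1, a synaptic vesicle protein, of 2.98.

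**Figure D1:**
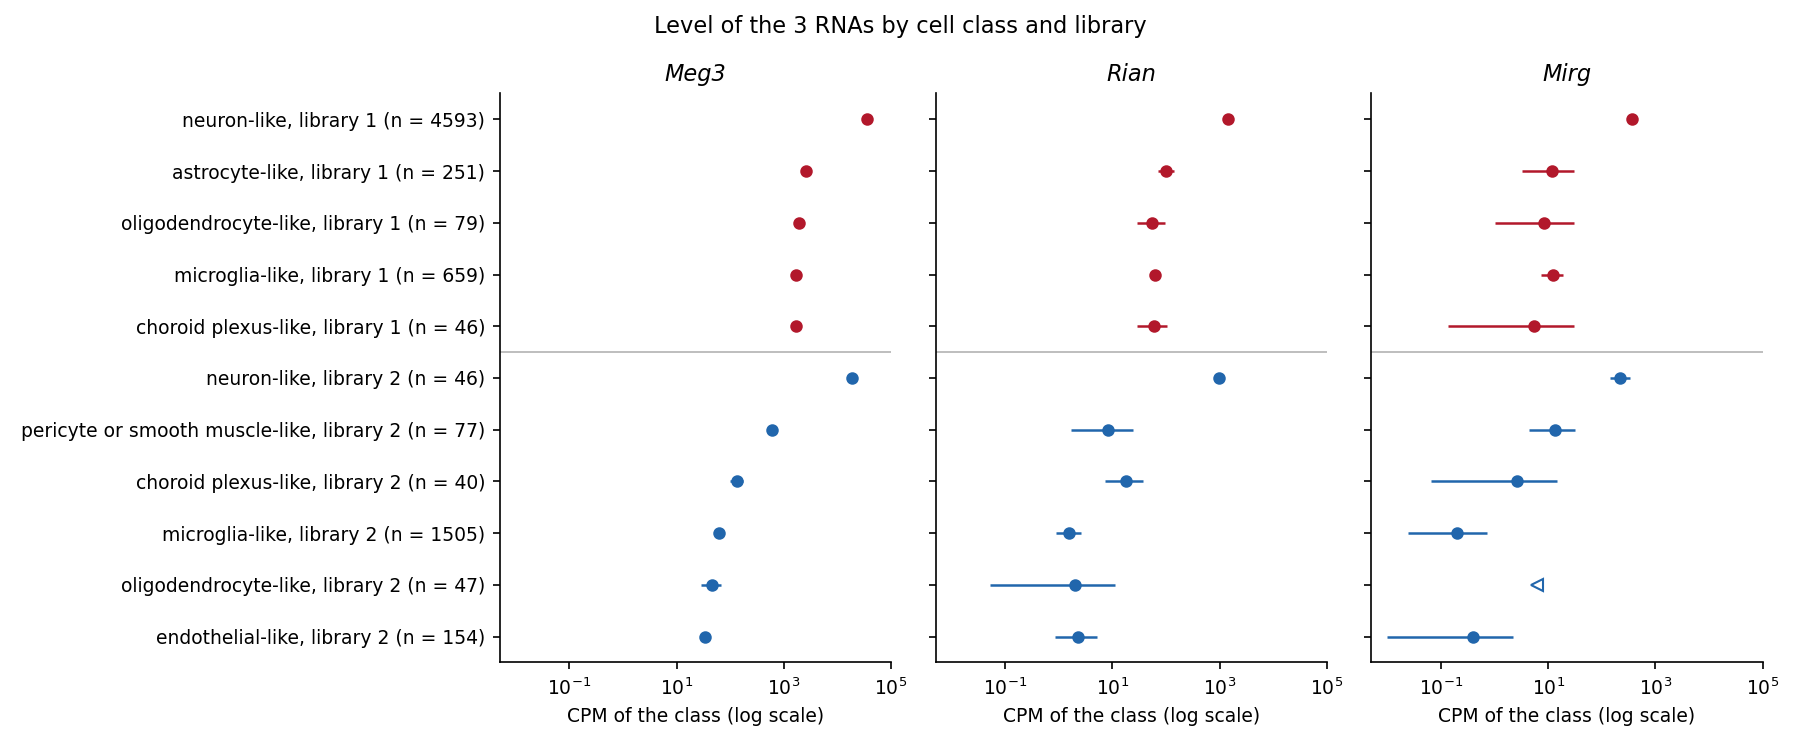
Level of Meg3, Rian and Mirg (CPM, log scale) in the cell classes of library 1 (red) and library 2 (blue) with 40 or more cells; points are class sums, bars exact 95% Poisson intervals, and the open triangle marks the level of 3 UMIs where none was seen. Neuron-like cells were highest in both libraries, and every non-neuronal class of library 1 lay above the non-neuronal classes of library 2 for Meg3.

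In library 1 nearly every microglia-like cell held Meg3. A Meg3 UMI was present in 95.8% of the 659 cells (exact binomial interval 93.9% to 97.2%) at a median depth of 2197 UMIs. In library 2 it was present in 22.8% of 1505 cells (20.7% to 25.0%) at a median depth of 6498 UMIs, so the library with the deeper cells had the lower share. With every cell thinned to 1000 UMIs, the shares were 79.1% and 5.05%. No cell was too shallow for this. In endothelial-like cells of library 2, which are not neural, the thinned share was 2.60%, and the unthinned share was 27.3% at a median depth of 7717 UMIs. The microglia share of 5.05% (4.00% to 6.28%) lies within the interval of the endothelial share (0.712% to 6.52%). That interval is wide because it rests on 4 cells with Meg3, so the shares cannot settle if the classes differ. The summed levels were apart, at 62.5 CPM (57.7 to 67.5) against 34.5 CPM (27.7 to 42.5). The microglia share is not read as expression, which was not tested.

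The Meg3 UMIs of library 1 were spread over the microglia-like cells and not held by a few. The median cell held 3 UMIs, with an interquartile range of 2 to 5. The highest cell held 38, and 12 cells held 10 or more. In library 2, 1162 of 1505 microglia-like cells held none, 103 held 2 or more and 7 held 10 or more, with a maximum of 16. Rian was found together with Meg3 in 82 microglia-like cells of library 1 and without it in 1. In library 2 these numbers were 7 and 9. Meg3 itself was present in 95.8% of the microglia-like cells of library 1 and 22.8% of those of library 2. The counts follow these shares in part, and no relation between the RNAs is read from them.

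**Figure D2:**
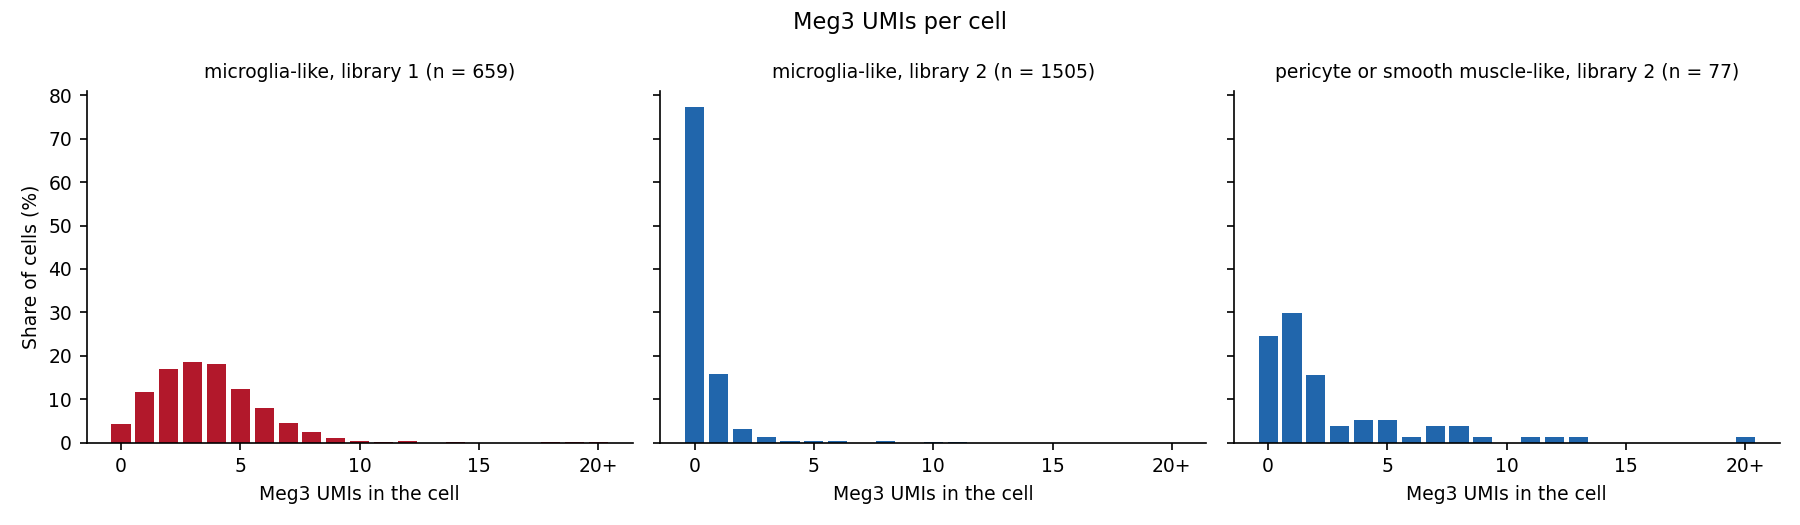
Share of cells (%) by the number of Meg3 UMIs in the cell, for microglia-like cells of library 1, microglia-like cells of library 2, and pericyte or smooth muscle-like cells of library 2. The mode was 3 UMIs in the first group, 0 in the second and 1 in the third, which has a tail up to 33 UMIs.

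Meg3 in microglia-like cells followed depth less than in neuron-like cells. Cells of each class were put into 4 groups of near-equal size by their total UMIs. In microglia-like cells of library 1 the mean was 3.18, 3.47, 4.01 and 4.33 Meg3 UMIs per cell, while the median depth rose from 1582 to 2924.5 UMIs and the Meg3 level fell from 2082 to 1407 CPM. In neuron-like cells the mean was 30.0, 42.9, 71.5 and 130.5 UMIs per cell, and the level rose from 25396 to 43692 CPM. The CPM intervals of the lowest and highest groups did not overlap in either class. Dentate granule-like cells, which held the least Meg3 of the neuron types, also had the lowest median depth among them, and the part of neuron type in the rise was not tested.

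**Figure D3:**
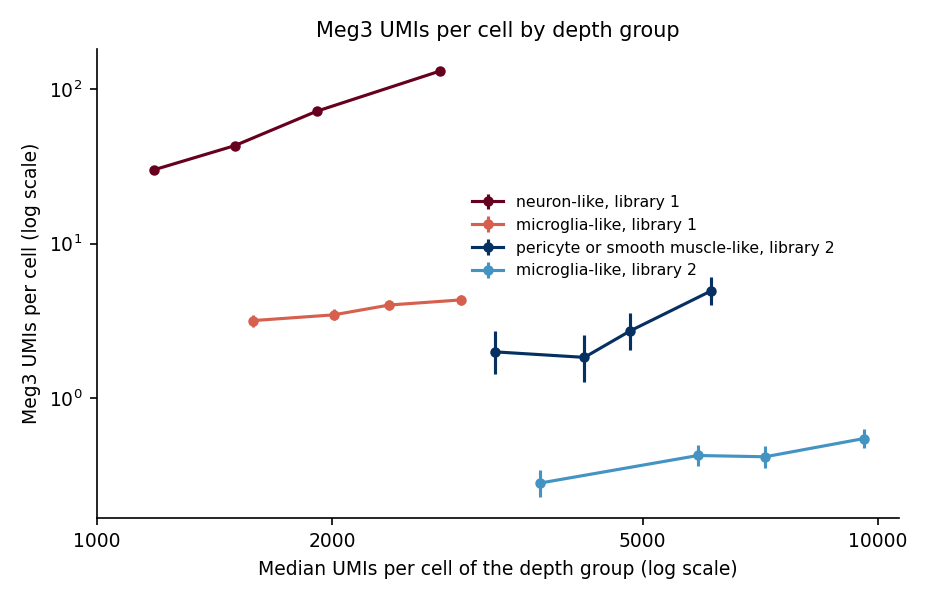
Mean Meg3 UMIs per cell (log scale) against the median total UMIs per cell (log scale) of 4 depth groups of each class; bars are exact 95% Poisson intervals. The neuron-like line climbs from 30.0 to 130.5 UMIs per cell, and the microglia-like line of library 1 from 3.18 to 4.33.

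Astrocyte-like and oligodendrocyte-like cells of library 1 had Meg3 levels near that of the microglia-like cells in the median cell, and choroid plexus-like cells a lower one. The median cell was at 1564 CPM among microglia-like cells, 1669 CPM among 251 astrocyte-like cells, 1550 CPM among 79 oligodendrocyte-like cells and 804 CPM among 46 choroid plexus-like cells. Summed over cells, the astrocyte-like class reached 2593 CPM (2424 to 2771) the oligodendrocyte-like class 1945 CPM (1771 to 2132) and the choroid plexus-like class 1685 CPM (1504 to 1882). A few cells raised these sums: 1 oligodendrocyte-like cell held 165 of the 458 Meg3 UMIs, 1 astrocyte-like cell held 105 of 873, and 1 choroid plexus-like cell held 96 of 315. Keeping only cells whose second-best class scored at most 0.25 of the best gave 1590 CPM for the astrocyte-like and 1169 CPM for the oligodendrocyte-like class. The astrocyte-like value moved the other way, to 5216 CPM, with the 19 cells of at least 2000 UMIs, and to 3526 CPM in Leiden clusters, which group cells by expression over many genes. In library 2 the same classes were far lower, at 79.9 CPM in 20 astrocyte-like cells (8 UMIs), 45.0 CPM in 47 oligodendrocyte-like cells (22 UMIs) and 132 CPM in 40 choroid plexus-like cells (51 UMIs). Only 9 of these choroid plexus-like cells held Meg3, and 1 of them held 22 of the 51 UMIs.

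The next comparison set the microglia-like cells of library 1 beside the neuron-like cells of the same library. The log2 difference, neuron-like over microglia-like, was 4.43 for Meg3, 4.33 for Rian and 4.07 for Mirg, against a median of 0.30 over the 15381 genes tested. Relative to that median the values were 4.13, 4.03 and 3.77. All 3 genes were at least 4-fold higher in neuron-like cells, as were 8.96% of all genes tested. The microglia level amounted to 4.60% of the neuron level for Meg3, 4.31% for Rian and 3.36% for Mirg. The counting interval of Mirg (1.99% to 5.32%) holds all 3 values, and that of Rian (3.48% to 5.28%) holds the Meg3 value, so a difference among the 3 was not detectable at this depth.

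Other RNAs of neuron-like cells showed a wide range of such percentages. Snhg11 was at 3.94%, the synaptic protein genes Snap25 and Syt1 at 6.23% and 9.51%, and Stmn3, a microtubule regulator, at 25.8%. The 11 neuron markers other than Snhg11 were together at 11.2%. Among 543 genes with at least 100 CPM in neuron-like cells of library 1 and at most 5 CPM in microglia-like cells of library 2, the median was 5.96% (interquartile range 3.52% to 9.79%). These genes were not required to be enriched in neurons. Cspg5 was at 826% of the neuron level in astrocyte-like cells of library 1, and Nfasc at 664% in oligodendrocyte-like cells. Of these genes, 37.4% lay below Meg3, 34.6% below Rian and 22.7% below Mirg. Meg3 and Rian lay inside the interquartile range of these genes and Mirg just below it. The limit of 5 CPM uses one side of the contrast that chose the genes. Meg3, at 62.5 CPM there, and Snhg11, at 23.2 CPM, do not meet it, so nothing is read from their place in the range. The set also holds Gm37899 and B830012L14Rik, which lie in the same domain.

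**Figure D4:**
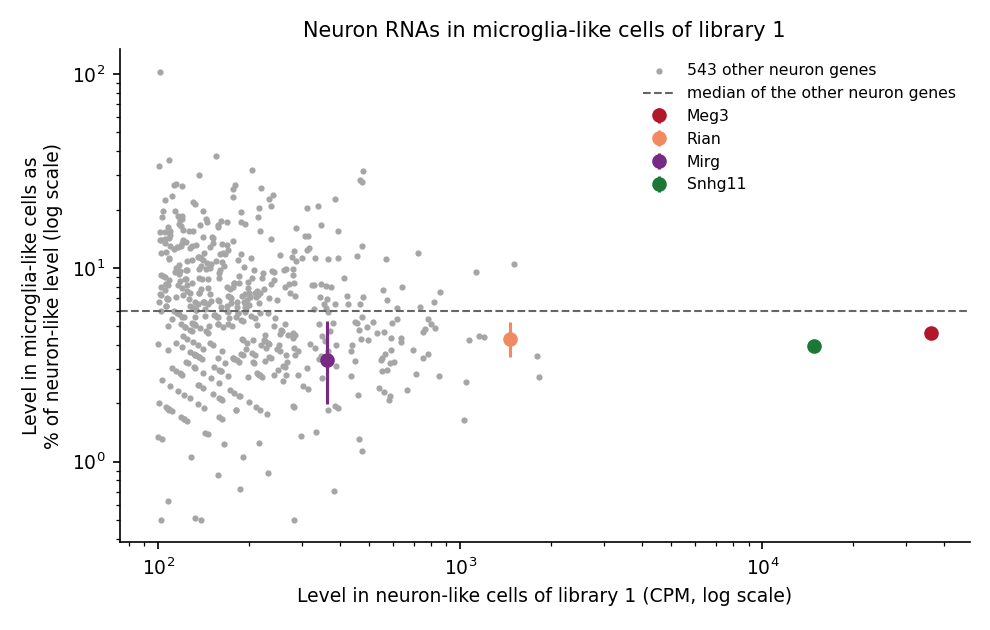
Level in microglia-like cells of library 1 as a percentage of the level in neuron-like cells of the same library (log scale) against the neuron-like level (CPM, log scale). Grey points, labelled other neuron genes, are the 543 genes chosen by the 2 CPM limits in the text, whether or not enriched in neurons (values under 0.5% drawn at 0.5%). The dashed line is their median of 5.96%. Coloured points are Meg3, Rian, Mirg and Snhg11 with exact 95% intervals of the microglia count, and all 4 lie under the line. Meg3 and Snhg11 do not themselves meet the limit in microglia-like cells of library 2.

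The proportions among the 3 RNAs were close in neuron-like and microglia-like cells of library 1. Per 100 Meg3 UMIs there were 4.02 Rian UMIs (3.95 to 4.09) in neuron-like cells and 3.77 (3.03 to 4.63) in microglia-like cells. Astrocyte-like cells had 3.89 (2.68 to 5.48). Mirg stood at 0.997 (0.962 to 1.03) in neuron-like and 0.729 (0.431 to 1.15) in microglia-like cells. Each of these glial intervals contains the neuron value. Snhg11 stood at 41.1 per 100 Meg3 UMIs in neuron-like, 41.1 in astrocyte-like and 35.2 (32.5 to 38.0) in microglia-like cells of library 1. The other 11 neuron markers did not keep one proportion: they stood at 11.6 in neuron-like cells, 28.3 (26.0 to 30.8) in microglia-like cells and 24.4 (20.9 to 28.4) in astrocyte-like cells. They also varied between neuron types, from 7.72 in GABAergic interneuron-like to 32.1 in dentate granule-like cells.

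The other 11 neuron markers were also set beside the Meg3 of each cell. In microglia-like cells of library 1 they summed to 547 CPM (371 to 776) in the 28 cells with no Meg3 UMI, 507 CPM (439 to 582) in the 189 cells with 1 or 2, and 454 CPM (413 to 497) in the 442 cells with 3 or more. The intervals of these groups overlap. In the 12 cells with 10 or more Meg3 UMIs, which belong to the last group, the markers summed to 876 CPM (582 to 1266), above that group's interval, with Snhg11 at 1095 CPM and Rian at 156 CPM (5 UMIs). In library 2 the marker sum was 53.0 CPM (48.0 to 58.4) in the 1162 microglia-like cells without Meg3 and 209 CPM (168 to 257) in the 54 cells with 3 or more, and Snhg11 was at 16.3 CPM and 180 CPM in the same cells. The libraries thus differed at the same cut. In library 1 the 199 cells with 5 or more Meg3 UMIs were at 481 CPM (421 to 548), not above the cells without Meg3. A higher marker sum was seen there only in the 12 cells with 10 or more, whose interval overlaps that of the cells without Meg3. In library 2 it was seen from 3 or more. The gate itself kept out cells with a high neuron marker score, so the marker levels of microglia-like cells are limited by it. The part of RNA from neurons in the Meg3 of microglia-like cells was not tested.

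Pericyte or smooth muscle-like cells of library 2, the contractile cells of vessel walls, held more Meg3 than the other non-neuronal cells of that library. The level over 77 cells was 602 CPM (526 to 687, 221 UMIs), against 62.5 CPM in microglia-like and 34.5 CPM (27.7 to 42.5) in endothelial-like cells. A Meg3 UMI was present in 75.3% of the cells at a median depth of 4616 UMIs, and in 35.1% after thinning, against 2.60% of endothelial-like cells. The log2 difference from microglia-like cells was 3.08, and 6.25% of 12409 genes were at least 4-fold higher in this contrast, which was added after the values had been seen. Without the 2 cells in which smooth muscle markers reached the pericyte markers, the level was 549 CPM (473 to 633) over 75 cells. With a mitochondrial limit of 20% in place of 10%, it was 413 CPM over 117 cells. Library 1 had only 1 such cell, so this class could not be set beside it there.

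The pericyte or smooth muscle-like cells carried little Snhg11 beside their Meg3. Per 100 Meg3 UMIs there were 1.36 Rian UMIs (0.278 to 4.02, from 3 UMIs) and 1.81 Snhg11 UMIs (0.489 to 4.70, from 4 UMIs). The Snhg11 proportion was 33.0 (30.2 to 36.1) in neuron-like cells and 37.1 (31.8 to 43.2) in microglia-like cells of the same library, and its interval in the vessel-wall cells lay below both. The Meg3 level of the pericyte or smooth muscle-like cells was 3.15% of that in neuron-like cells of library 2, where 1 cell held 545 of the 2004 Meg3 UMIs. Their levels of Snhg11, Snap25, Syt1 and Stmn3 were 0.172%, 0.297%, 0.973% and 1.06% of the neuron-like levels. The 11 neuron markers other than Snhg11 were together at 1.57% (1.10% to 2.16%), or 16.7 per 100 Meg3 UMIs (11.5 to 23.8) against 33.6 (30.7 to 36.7) in neuron-like cells of library 2. Mirg was at 6.2% (2.01% to 14.5%) and Rian at 0.823% (0.170% to 2.41%). Mirg gave 5 UMIs, or 2.26 per 100 Meg3 UMIs (0.727 to 5.36), so Rian and Mirg were too few here to compare with neurons.

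Meg3, Rian and Mirg took the same order across the neuron types of library 1. Dentate granule-like cells, the small neurons of the dentate gyrus, were lowest: Meg3 was at 13065 CPM (12884 to 13249), Rian at 594 CPM (556 to 634) and Mirg at 114 CPM (97.7 to 132) over 963 cells. CA3 pyramidal-like cells (759) followed with Meg3 at 42259 CPM (41963 to 42556), Rian at 1625 CPM and Mirg at 416 CPM. CA1 pyramidal-like cells (516) were close to them, with Meg3 at 43487 CPM (43096 to 43881), Rian at 1684 CPM and Mirg at 446 CPM. GABAergic interneuron-like cells (154) were highest, with Meg3 at 52657 CPM (51833 to 53491), Rian at 2233 CPM (2066 to 2410) and Mirg at 616 CPM (530 to 712). CA3 and CA1 did not differ beyond their counting intervals in Rian or Mirg. Their Meg3 order is not firm either, because the mean over cells put CA3 at 42325 CPM and CA1 at 42104 CPM. The CA3 and CA1 marker lists also overlapped in the cells they marked, with the CA3 marker Cpne7 high in CA1 pyramidal-like cells. The pattern was not particular to the domain. The 12 neuron markers, Snhg11 included, summed to 8346 CPM in granule-like and 23466 CPM in CA3 pyramidal-like cells. They summed to 21228 CPM in CA1 pyramidal-like and 27579 CPM in interneuron-like cells. Without Snhg11 the sums were 4200, 4444, 3831 and 4064 CPM in the same order. Snhg11, which lies outside the domain, was thus also lowest in granule-like and highest in interneuron-like cells.

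The interneuron-like over granule-like log2 difference was 2.01 for Meg3, 1.89 for Rian and 2.33 for Mirg, with a median of -0.02 over 10023 genes. In this contrast, added after the values had been seen, all 3 were at least 2-fold higher, as were 5.89% of the genes tested. Median depths were 1487 UMIs in granule-like, 2237 in CA3, 2022 in CA1 and 1745.5 in interneuron-like cells. Granule-like cells were lowest in both depth and Meg3, and interneuron-like cells, highest in Meg3, were second lowest in depth. With cells of at least 2000 UMIs only, granule-like cells rose to 17748 CPM of Meg3 and remained lowest. The median granule-like cell held 15 Meg3 UMIs, against 95, 80 and 88.5 in CA3, CA1 and interneuron-like cells. All 3 RNAs were seen together in 9.87% of granule-like and 59.2% of CA3 pyramidal-like cells. The proportion of Rian to Meg3 was more even, between 3.85 (3.71 to 3.99) per 100 in CA3 and 4.55 (4.25 to 4.86) in granule-like cells, whose intervals do not overlap. Mirg per 100 Rian UMIs was at 19.2 (16.2 to 22.6) in granule-like cells. It was higher in CA3 at 25.6 (23.6 to 27.7), CA1 at 26.5 (23.9 to 29.3) and interneuron-like cells at 27.6 (23.3 to 32.5). A further 2201 neuron-like cells had no subfield call and stood at 39010 CPM of Meg3.

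**Figure D5:**
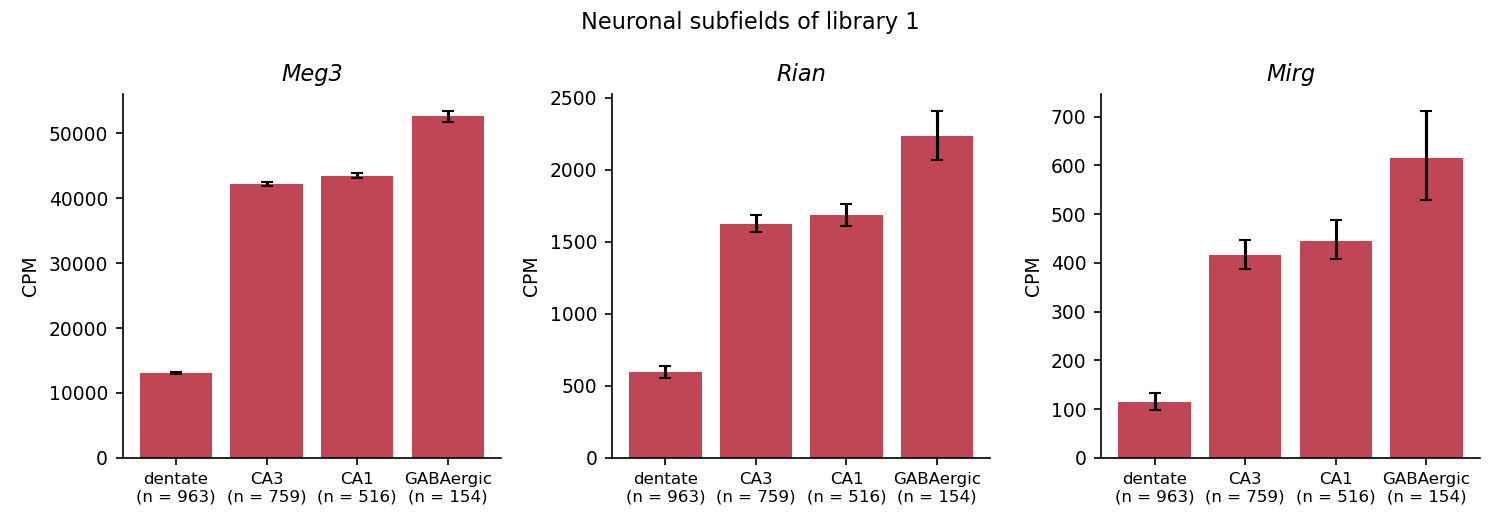
Level (CPM, linear axes starting at 0) of Meg3, Rian and Mirg in 4 neuron types of library 1; bars are class sums and error bars exact 95% Poisson intervals. Dentate granule-like cells are lowest and GABAergic interneuron-like cells highest for each RNA.

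The rest of the domain was measured by 18 further features between Dlk1 and Dio3, small RNA genes aside. Of these, 7 had enough UMIs to compare neuron-like with microglia-like cells, and 2 were at least 4-fold higher in neuron-like cells, with a median log2 difference of 1.45, against 8.96% and 0.30 for all genes. The 2 were Gm37899 and B830012L14Rik, non-coding features that lie on the plus strand between Rian and Mirg. In library 1 Gm37899 reached 365 CPM in neuron-like and 6.74 CPM in microglia-like cells (10 UMIs), and B830012L14Rik 181 and 3.37 CPM (5 UMIs). Both followed the order of Meg3 across neuron types: Gm37899 rose from 138 CPM in granule-like through 408 and 417 CPM in CA3 and CA1 to 494 CPM in interneuron-like cells, and B830012L14Rik from 65.3 through 205 and 213 to 257 CPM. Gm26945, a lincRNA inside Rian, was at 29.4 CPM in neuron-like cells, and Gm26906, on the strand opposite the Meg3 3′ end, at 19.2 CPM. No source used here states if overlapping genes were counted by strand, so their values are uncertain.

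The protein-coding genes of the domain were at the edge of detection. Dlk1, a Notch-pathway ligand homologue, was at 4.59 CPM (40 UMIs) in neuron-like cells of library 1. Rtl1, a retrotransposon-derived gene, was at 5.39 CPM (47 UMIs), and Dio3, a thyroid hormone deiodinase, at 4.93 CPM (43 UMIs). In microglia-like cells of library 1 they gave 4, 1 and 1 UMIs, and in those of library 2 none, which allows up to 0.296 CPM (3 UMIs). The counting interval of Rtl1 in neuron-like cells (3.96 to 7.17) lay above that in microglia-like cells of library 1 (0.0171 to 3.76), while those of Dlk1 and Dio3 overlapped between the same classes.

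Imprinted genes from other domains varied in direction. Of 40 in the list, 28 could be compared between neuron-like and microglia-like cells of library 1, and 7 were at least 4-fold higher in neuron-like cells, none at least 4-fold lower, with a median log2 difference of 1.35, against 8.96% of all genes at least 4-fold higher and a median of 0.30. Kcnq1ot1, an imprinted antisense RNA, was at 2049 CPM in neuron-like cells, and at 261 and 159 CPM in microglia-like cells of libraries 1 and 2. Snhg14, the long host transcript that runs antisense to Ube3a, was at 1360, 35.7 and 5.82 CPM in the same order. Ube3a, a ubiquitin ligase, was at 1773, 180 and 137 CPM. Peg3, a zinc finger gene, was at 271, 22.3 and 3.36 CPM, and Rasgrf1, a Ras exchange factor, at 253, 29.7 and 2.76 CPM. Gnas, a G protein subunit, was lower in neuron-like cells, at 168 CPM against 492 and 508 CPM. Between the microglia-like cells of the 2 libraries, none of 22 imprinted genes compared reached a 4-fold difference in either direction once 10 CPM had been added to each level, which lowers the fold of genes as low as Snhg14, Peg3 and Rasgrf1 (log2 differences of 1.53, 1.27 and 1.64 on that scale). Of all genes, 0.559% were at least 4-fold higher in library 1 on the same scale.

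Other long non-coding RNAs of brain cells were also mixed, and Kcnq1ot1, Snhg14 and Peg13 belong to both lists. Of 10 compared, 4 were at least 4-fold higher in neuron-like than in microglia-like cells of library 1, with a median log2 difference of 1.85, against 8.96% of all genes. Of 9 compared, 2 were at least 4-fold higher in microglia-like cells of library 1 than of library 2, against 0.559% of all genes, in the contrast that chose Meg3 and Rian. Those 2 were Snhg11, at 586 and 23.2 CPM, and Miat, at 52.6 and 4.74 CPM. Malat1, a nuclear RNA found in all cell types, was at 41185 and 33768 CPM, and Gas5, a snoRNA host, at 183 and 205 CPM. Of the 12 neuron markers, Snhg11 included, 8 were at least 4-fold higher in neuron-like than microglia-like cells of library 1 (median log2 2.79), and 8.96% of all genes were. These markers define the neuron-like class, so the gate fixed the direction of this contrast and nothing is read from it. Snhg11 is also among the 4 long non-coding RNAs counted above. Of the same 12, 5 were at least 4-fold higher in microglia-like cells of library 1 than of library 2 (median 1.42), and 0.559% of all genes were. Celf4, an RNA-binding protein of neurons, was at 655 CPM in neuron-like cells and at 29.0 and 6.91 CPM in microglia-like cells.

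Across 7 sums of at least 50 cells (neuron-, microglia-, astrocyte- and oligodendrocyte-like cells of library 1, and microglia-, endothelial- and pericyte or smooth muscle-like cells of library 2), 5 genes had the pattern most like that of Meg3 among 4847 genes. They were Zfp644 (Pearson r 0.979 of log2 of CPM with 10 added), Syp (0.977), Gria3 (0.975), Nptxr (0.974) and D430042O09Rik (0.973). Rian was at 0.948 and Mirg at 0.861. These are descriptions over 7 points that share libraries and differ in depth. The correlation does not weigh the size of the differences. Zfp644 was at 336 CPM in neuron-like cells of library 1 and at 125 CPM in microglia-like cells of library 2. Meg3 was at 36207 and 62.5 CPM in the same classes. Syp, a synaptic vesicle protein, was at 513 CPM in neuron-like cells, and microglia-like cells had 56.0 CPM in the first library and 5.43 CPM in the second. In pericyte or smooth muscle-like cells it was at 16.4 CPM.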

How the data were processed

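The deposited files hold raw UMI counts per gene and barcode of 2 droplet libraries (10x Chromium 3' kit, version 3), made by the authors with Cell Ranger 3.0.1 on GRCm38.p5 per the submitters' processing notes, with no normalization. No barcode had under 500 UMIs, and the step behind that limit is unknown. In all, 19 barcodes occur in both libraries. The files of library 2 carry another sample number than its title.

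Cells needed at least 1000 UMIs, 500 genes and at most 10% mitochondrial UMIs. Doublets were scored with Scrublet in scanpy 1.11.5: 12.8% of barcodes in library 1 by its automatic threshold, and in library 2, where that marked 0, the 5.16% with the highest scores. A class needed at least 3 of its markers and a second-best score of at most 0.5 of the best, where the score is the marker level relative to typical cells of that class. A marker holding over 0.5 of its list's UMIs (Snhg11 at 77.9%, Vtn, Ttr, Hbb-bs) was left out of that level. Subfields needed 2 markers. These thresholds were set after class sizes and marker levels were seen. Between 0.25 and 0.5 lay 202 neuron-like and 90 microglia-like cells of library 1 and 21 microglia-like cells of library 2. In library 1, 346 cells stayed without a class, and in library 2, 128.

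The 3 genes and all lists were chosen with earlier results of these data known. Genes were compared where the 2 sums together held at least 20 UMIs, with 10 CPM added before log2. Besides the 3 genes, the text names the Dlk1-Dio3 features above the edge of detection and its 3 protein-coding genes, up to 6 imprinted genes and non-coding RNAs with the highest neuron level, the leading neuron markers, and the 5 genes closest to Meg3 in pattern. Shares carry exact binomial (Clopper-Pearson) intervals. UMIs that share a droplet or a free-RNA pool are not independent, so all intervals are too narrow. The fold calls were tested on simulated counts. The alternatives were other limits on cells, doublets, gates, clusters, scaling and added CPM.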

Additional observations from a re-analysis of the deposited data

Results flagged for a closer look

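Barcodes outside the kept cells also held Meg3, at levels above that of the microglia-like cells. In library 1 Meg3 was at 7237 CPM over 4642 barcodes with fewer than 1000 UMIs and at 10890 CPM over 418 deeper barcodes with over 10% mitochondrial UMIs. In library 2 the same sets were at 7659 CPM (2370 barcodes) and 708 CPM (1406 barcodes), against 62.5 CPM in its microglia-like cells. The shallow barcodes of the 2 libraries were thus closer to each other in Meg3 than their microglia-like cells were. Neuron markers other than Snhg11 summed to 2188 CPM and 3282 CPM in the shallow barcodes of libraries 1 and 2. Rian stood at 400 CPM and 181 CPM in the shallow barcodes of libraries 1 and 2, and Mirg at 93.1 CPM and 53.6 CPM. Which cells these barcodes came from was not tested.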

How the results depend on the processing

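Each of the 3 RNAs stayed higher in neuron-like than in microglia-like cells of library 1, and higher in microglia-like cells of library 1 than of library 2, in all 9 alternative settings tried of cell limits, doublets, gates and scale. The Meg3 ratio ranged from 18.5 to 27.7 for neuron-like over microglia-like cells and from 18.4 to 27.5 for library 1 over library 2. The contrast between libraries chose Meg3 and Rian, so its direction in these settings restates that choice. Of 99 other values for the main results, 66 stayed within the counting interval (for counts of genes, within 1.5 times) and 33 did not. The cause of these shifts was not tested. Meg3 in microglia-like cells of library 1 was at 1549 CPM with at least 2000 UMIs, 1942 CPM with doublets kept and 1587 CPM with second scores of at most 0.25 (chosen after seeing the data). In library 2 it was at 105 CPM with doublets kept, 67.6 CPM in Leiden clusters and 71.5 CPM as a mean over cells, and Rian was at 2.57 CPM with doublets kept. In neuron-like cells of library 1 Meg3 was at 34830 CPM with at least 500 UMIs, 42897 CPM with at least 2000, 35612 CPM with a mitochondrial limit of 20%, 35857 CPM with doublets kept, 37408 CPM with 5 markers required, 35389 CPM in Leiden clusters, 33689 CPM as a mean over cells, 36746 CPM without mitochondrial UMIs and 36513 CPM with second scores of at most 0.25. Rian there was at 1419 CPM with at least 500 UMIs, 1626 CPM with at least 2000, 1484 CPM with 5 markers, 1426 CPM in Leiden clusters and 1394 CPM as a mean over cells, and Mirg at 387 CPM with at least 2000 UMIs. Thinned to 500 UMIs, the share of microglia-like cells with Meg3 was 53.3% in library 1 and 2.46% in library 2. As means over cells, Meg3 was at 12482 CPM in granule-like, 42104 CPM in CA1 and 51737 CPM in interneuron-like cells, and with at least 2000 UMIs at 17748, 46135 and 54048 CPM. With 1 CPM added in place of 10, 499 genes in place of 70 were 4-fold higher in microglia-like cells of library 1 than of library 2, and 3776 in place of 1378 in neuron-like over microglia-like cells, where median-of-ratios scaling gave 895. No paired analysis was possible because no label puts either library in a group. No library could be left out, since each has no replicate. Depth limits Mirg most: its 18 and 2 UMIs in microglia-like cells give wide intervals.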
